A study of Mus musculus with 48 samples.

Results

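The betaine cluster of mouse chromosome 13 holds Bhmt, Bhmt2 and Dmgdh, which belong to betaine and dimethylglycine metabolism, and AW495222, an antisense transcript that overlaps Dmgdh. The 4 genes were taken by their names from the 48795 genes of the deposited tables, and 3 of them passed a filter on low counts that kept 20010 genes. The cluster was chosen by measured differences between the numbers of altered Msh3 alleles. The values of its genes over that number are therefore given as a description with no test. The libraries were made from cerebral cortex RNA of 48 C57BL/6 mice, 24 females and 24 males, all at 6 months of age. Of the mice heterozygous for the Q140 knock-in of huntingtin (Htt), 8 were Q140 x Msh3-/-, 8 were Q140 x Msh3+/- and 8 carried Q140 alone. Of the mice without Q140, 8 were Msh3-/-, 9 were Msh3+/- and 7 were wild type (WT), the last group with 3 females and 4 males. No treatment is named in the labels, and how the Msh3 allele was made is not given in the sources used here. The mice are labelled as separate samples, and whether litters were shared is not given. The deposited column names carry 27 name stems, whose meaning is not given, and 13 of them are shared by mice of more than 1 group. With the stem as a random block (limma), the changes per altered allele of the measured members were -0.50 for Bhmt2, 0.29 for Dmgdh and -0.50 for AW495222 on the log2 scale, and no Q140, sex or interaction call on them changed. These libraries came from whole cortex, in which fewer cells of a type and less RNA per cell cannot be told apart.

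Betaine, made from choline, donates a methyl group to homocysteine in a reaction carried out by BHMT, which yields methionine and dimethylglycine. BHMT is known chiefly as an enzyme of liver and kidney, where it works beside the folate-dependent methionine synthase. BHMT2 is its close relative and takes the methyl group from S-methylmethionine instead. DMGDH, a mitochondrial flavoprotein, then demethylates dimethylglycine to sarcosine, passing its electrons to the electron transfer flavoprotein and the carbon unit to tetrahydrofolate. No function of AW495222 is given in the files. MSH3 is a DNA mismatch repair protein known for its part in the expansion of CAG repeats, such as the repeat in Htt.

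The cluster spans 136 kb on the far side of the Msh3 start, at 1.26 to 1.40 Mb from it. On GRCm38, with GENCODE M21 annotation, Bhmt (ENSMUSG00000074768) lies on the minus strand of chromosome 13 at 93616675-93637961 with 7 exons. Bhmt2 (ENSMUSG00000042118) follows on the same strand at 93655720-93674302 with 8 exons. Dmgdh (ENSMUSG00000042102) runs the other way, on the plus strand at 93674433-93752833 with 17 exons. AW495222 (ENSMUSG00000087334), annotated as antisense, has 3 exons on the minus strand at 93706182-93719175, inside the Dmgdh gene. Bhmt2 and Dmgdh are thus transcribed away from each other, and 133 bases separate their RefSeq starts at 93674302 and 93674436. That stretch is shown because both genes start from it and their RNA differed in opposite directions between the allele classes below. It is read on the plus strand at chr13:93674282-93674456 from RefSeq on GRCm38.p6, with the bases between the starts in capitals and the starts, with 20 bases beyond each, in lower case. The start region of AW495222, at chr13:93719155-93719425 on the minus strand, is shown for contrast, with the first transcribed base in capitals. The third sequence is the plus-strand reading of the 215 exon bases that Dmgdh and AW495222 share on opposite strands, at chr13:93715458-93715672.
Bhmt2 to Dmgdh: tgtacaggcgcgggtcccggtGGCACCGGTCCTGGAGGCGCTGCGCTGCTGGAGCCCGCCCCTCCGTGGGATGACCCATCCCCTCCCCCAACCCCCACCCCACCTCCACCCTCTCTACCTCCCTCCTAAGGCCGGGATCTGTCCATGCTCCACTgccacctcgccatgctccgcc
AW495222 promoter: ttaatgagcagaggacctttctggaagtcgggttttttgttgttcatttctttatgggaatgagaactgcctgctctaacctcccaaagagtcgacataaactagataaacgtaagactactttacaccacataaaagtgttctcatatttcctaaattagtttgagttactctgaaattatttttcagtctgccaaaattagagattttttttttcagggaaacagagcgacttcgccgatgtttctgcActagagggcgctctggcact
Dmgdh and AW495222 shared exon bases: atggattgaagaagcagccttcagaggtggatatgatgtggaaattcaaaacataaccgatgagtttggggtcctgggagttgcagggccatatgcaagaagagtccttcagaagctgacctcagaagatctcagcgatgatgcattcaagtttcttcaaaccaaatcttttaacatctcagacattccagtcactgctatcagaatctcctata

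**Figure D1:**
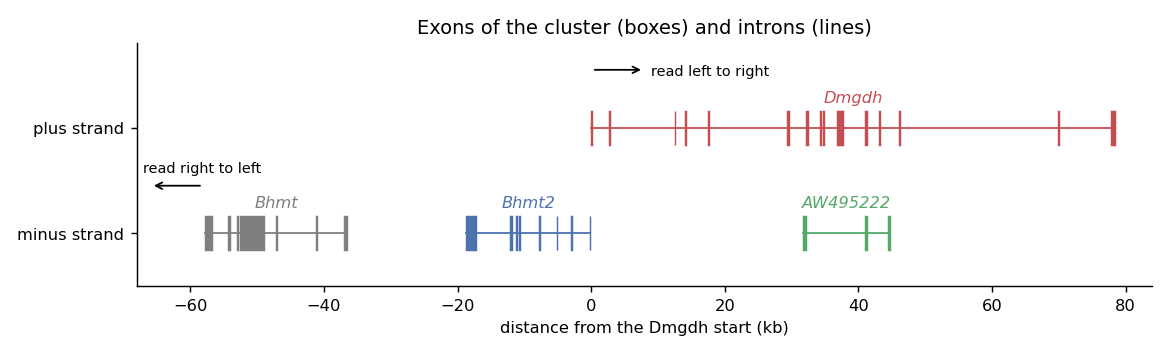
Exon map of the cluster, with distance from the Dmgdh start in kb on the horizontal axis, the strands as rows, exons as boxes and introns as lines. Bhmt2 and Dmgdh start next to each other and run apart, and the 3 exons of AW495222 lie within the Dmgdh gene, 1 of them over 215 bases of Dmgdh exon.

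The promoter windows of all 4 genes, each 250 bases before and 50 bases after the RefSeq start, were set against 32817 such windows. The Bhmt2 and Dmgdh windows, which overlap, were rich in CG dinucleotides, with 26 and 25 of them, and 73.7% and 68% of their bases were G or C. Bhmt had 8 CG dinucleotides and AW495222 had 7, against a median of 7 over all windows. The letters GGGCGG, a motif searched on both strands and present in 35.6% of windows, occurred 2 times in the Bhmt2 window on its own strand. The Dmgdh window had 2 on its opposite strand. The stretch shown between the 2 starts lies in both windows and holds CCGCCC, the reverse complement, so that copy was counted for both genes. Whether the other copy was also shared was not determined. Neither Bhmt nor AW495222 had one. TATAAA, present on either strand in 13.6% of windows, was in none of the 4. CCAAT, present in 37.4%, was found only in the Bhmt window, 1 time on each strand.

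The libraries held 35.9 to 64.5 M counts in genes, and averaged 46.5 M counts. The RNA of Msh3 itself was higher, not lower, in the mice labelled Msh3+/- and Msh3-/-. Leaving out 2 mice named below, it had a median of 23.8 CPM (counts scaled to library size) with 0 altered alleles, 66.2 CPM with 1 and 112 CPM with 2, and these classes did not overlap. The level of this RNA therefore goes against the labels as loss of a transcript, while it separated the labelled classes completely, and the mice are described here by their number of altered Msh3 alleles. Markers of cortical neurons were high in every library, with Slc17a7, the vesicular glutamate transporter of excitatory neurons, at 1043 to 1389 CPM. Summed RNA of 9 choroid plexus markers lay at 210 to 729 CPM with 0 altered alleles, 206 to 254 CPM with 1 and 203 to 1992 CPM with 2. It was highest in Msh3-/- female 4 at 1992 CPM, in WT male 3 at 729 CPM and in Msh3-/- female 3 at 408 CPM. Enpp2 alone was at 195 CPM or more in every mouse, so the lowest sums were mostly Enpp2. The lowest Ttr was 0.641 CPM, and the lowest Kcne2 and Otx2 were 0 CPM. All 7 of these markers that passed the count filter had a positive change per allele, with a median of 0.30 on the log2 scale against a median of -0.0020 over all genes, and none passed the test (0 of 7 at an unadjusted p under 0.05). No marker of the other lists passed either. Of the oligodendrocyte markers 0 of 6 had a change above 0 (median -0.057, 2 at an unadjusted p under 0.05), of the cortical neuron markers 7 of 8 (median 0.020, 2 at that p) and of the microglia markers 4 of 6 (median 0.012, 2 at that p), where 9.13% of all genes were at that p. Vascular markers were above 0 in 2 of 7 cases (1 at that p), astrocyte markers in 5 of 6 and meningeal and fibroblast markers in 4 of 8 (0 at that p in both). The part of these RNAs in the values of the cluster was not tested.

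At some genes on the cluster's side of Msh3, 2 mice, singled out after their values were seen, stood apart from their labelled class. They are also the only mice whose column names have a stem that starts with MMQC. In WT male 3, Msh3 RNA was at 23.8 CPM and Rasgrf2, a Ras activator gene on the other side of Msh3, was at 309 CPM, both within the ranges of the other 14 mice with 0 altered alleles. Cmya5, a muscle protein gene between Msh3 and the cluster, was at 13.3 CPM in that mouse, below the 15.5 to 20.6 CPM of those mice and within the 11.5 to 14.6 CPM of the mice with 1. Its F2r, a thrombin receptor gene beyond the cluster, was at 5.06 CPM, above the 2.93 to 4.67 CPM of the mice with 0. In Msh3+/- female 4, Msh3 at 72.5 CPM and Rasgrf2 at 271 CPM lay within the ranges of the other 16 mice with 1 altered allele. Its Cmya5, at 8.07 CPM, lay within the 7.16 to 9.999 CPM of the mice with 2 alleles, and its F2r, at 7.21 CPM, lay above their 5.73 to 7.13 CPM. In the cluster, Bhmt2 of WT male 3, at 0.507 CPM, lay below the 0.598 to 1.32 CPM of the other mice with 0 altered alleles, while its Dmgdh, at 0.799 CPM, lay within their 0.462 to 0.831 CPM. In Msh3+/- female 4 Bhmt2, at 0.778 CPM, lay within the 0.198 to 1.35 CPM of the other mice with 1, while Dmgdh, at 1.58 CPM, lay above their 0.447 to 1.33 CPM.

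Bhmt was close to undetected in cortex. Over all 48 libraries it had 24 of 2233 M counts, or 0.0107 CPM with an exact 95% Poisson interval of 0.00689 to 0.0160, which covers counting error only. A count was seen in 16 mice, and no library held more than 3. The mice with 0, 1 and 2 altered alleles held 9, 7 and 8 of these counts. Pooled over the mice of a class, that was 0.0126 CPM (95% Poisson interval 0.00578 to 0.0240) with 0 altered alleles. It was 0.00894 CPM (0.00359 to 0.0184) with 1 and 0.0108 CPM (0.00468 to 0.0214) with 2. These intervals overlapped, so no fold is given and no difference was resolved at these counts. A single library of mean depth with no count allows up to 3 counts, or 0.0645 CPM, above each of these levels. Among defining genes of the organs known for this enzyme, the kidney genes Umod, Kap and Miox had no count in any mouse, while Slc34a1 averaged 0.0692 CPM and Lrp2 0.117 CPM. The liver genes Serpina1a, Alb, Cyp2e1 and Apoa1 averaged 0.0038, 0.0640, 0.2003 and 0.265 CPM, and the fifth, Ttr, which is also a choroid plexus marker, averaged 35.0 CPM.

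**Figure D2:**
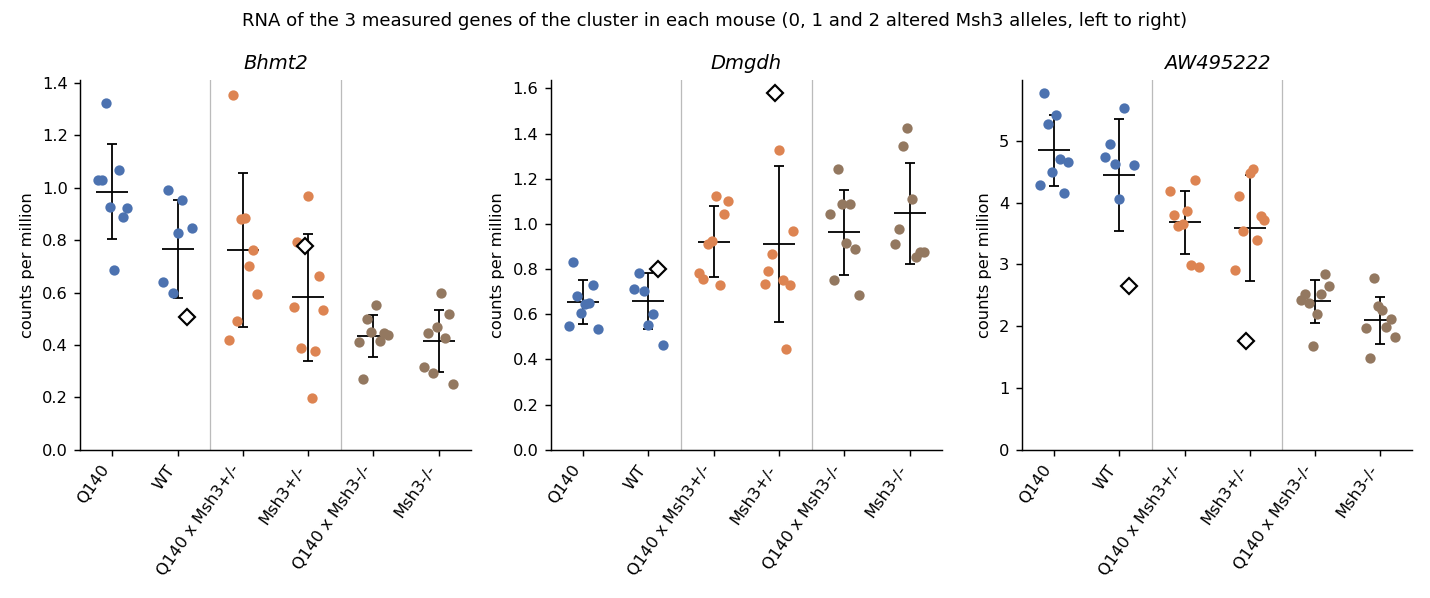
RNA of Bhmt2, Dmgdh and AW495222 in CPM (vertical axes, from 0) for each mouse of the 6 groups, with 1 point per mouse, the mean as a horizontal bar and the SD as whiskers. Open diamonds mark WT male 3 and Msh3+/- female 4. Bhmt2 and AW495222 are lowest in the groups with 2 altered alleles, on the right of each panel, and Dmgdh is lowest in the groups with 0, on the left.

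Bhmt2 RNA was lower with more altered Msh3 alleles. Among Q140 mice, its lowest, median and highest levels were 0.684, 0.978 and 1.32 CPM with 0 altered alleles, 0.419, 0.733 and 1.35 CPM with 1, and 0.271, 0.441 and 0.552 CPM with 2. Among mice without Q140 they were 0.507, 0.826 and 0.991 CPM in WT mice, 0.198, 0.545 and 0.968 CPM in Msh3+/- mice, and 0.252, 0.436 and 0.599 CPM in Msh3-/- mice. All 8 Q140 x Msh3-/- mice lay below every Q140 mouse, and 6 of 8 Msh3-/- mice lay below the lowest WT mouse, WT male 3. The mice with 1 altered allele covered the whole range of all mice. They held both the lowest value of all, in Msh3+/- male 1, and the highest, in Q140 x Msh3+/- female 2. On the log2 scale, the difference was -1.16 ± 0.22 (SE) in Q140 x Msh3-/- against Q140 mice and -0.89 ± 0.23 in Msh3-/- against WT mice. With 1 altered allele it was -0.36 ± 0.21 in Q140 x Msh3+/- against Q140 mice and -0.41 ± 0.22 in Msh3+/- against WT mice. Over all 48 mice each altered allele went with 0.702 times the RNA, a log2 change of -0.51 ± 0.08.

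Dmgdh RNA differed in the opposite direction. Among Q140 mice, its lowest, median and highest levels were 0.535, 0.647 and 0.831 CPM with 0 altered alleles, 0.729, 0.917 and 1.12 CPM with 1, and 0.685, 0.980 and 1.25 CPM with 2. Among mice without Q140 they were 0.462, 0.701 and 0.799 CPM in WT, 0.447, 0.792 and 1.58 CPM in Msh3+/- and 0.855, 0.945 and 1.42 CPM in Msh3-/- mice. All 8 Msh3-/- mice lay above every WT mouse, and 6 of 8 Q140 x Msh3-/- mice lay above the highest Q140 mouse. The highest value of all mice was in Msh3+/- female 4, whose Bhmt2 was at 0.778 CPM. The log2 difference was 0.56 ± 0.16 (SE) in Q140 x Msh3-/- against Q140 mice and 0.65 ± 0.17 in Msh3-/- against WT mice, and with 1 altered allele it was 0.50 ± 0.16 and 0.43 ± 0.17 against the same controls. Each altered allele went with 1.23 times the RNA, a log2 change of 0.30 ± 0.06. Msh3-/- females 4 and 3, with raised choroid plexus RNA, had the highest Dmgdh of their group at 1.42 and 1.34 CPM, and without them and WT male 3 the Msh3-/- against WT difference was 0.59.

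AW495222, the RNA made from the strand opposite Dmgdh, was lower with more altered alleles, as Bhmt2 was and Dmgdh was not. Among Q140 mice, its lowest, median and highest levels were 4.15, 4.69 and 5.78 CPM with 0 altered alleles, 2.95, 3.73 and 4.37 CPM with 1, and 1.68, 2.47 and 2.85 CPM with 2. Among mice without Q140 they were 2.64, 4.62 and 5.53 CPM in WT, 1.76, 3.72 and 4.54 CPM in Msh3+/- and 1.49, 2.06 and 2.77 CPM in Msh3-/- mice. All 8 Q140 x Msh3-/- mice lay below every Q140 mouse, and 7 of 8 Msh3-/- mice lay below the lowest WT mouse. That WT mouse was WT male 3 at 2.64 CPM, and the lowest Msh3+/- mouse was Msh3+/- female 4 at 1.76 CPM. The other mice lay at 4.07 to 5.78 CPM with 0 altered alleles, 2.91 to 4.54 CPM with 1 and 1.49 to 2.85 CPM with 2. AW495222 was among the genes by which these 2 mice were singled out, so the gap that their removal leaves between the classes with 1 and 2 is no further result. The log2 difference was -1.01 ± 0.13 (SE) in Q140 x Msh3-/- against Q140 mice and -1.08 ± 0.14 in Msh3-/- against WT mice. With 1 altered allele it was -0.39 ± 0.13 and -0.30 ± 0.13 against the same controls, and each allele went with 0.698 times the RNA, a log2 change of -0.52 ± 0.05.

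WT male 3 and Msh3+/- female 4 were singled out after their values were seen, so fits without them are given as a description only. With both left out, the change per altered allele was -0.53 for Bhmt2, 0.32 for Dmgdh and -0.54 for AW495222 on the log2 scale. The Msh3-/- against WT differences were then -0.97, 0.73 and -1.18 for the same genes, and the Msh3+/- against WT differences were -0.54, 0.39 and -0.32. Without the 3 libraries of raised choroid plexus RNA it was -0.52, 0.28 and -0.56 for the same genes, and the Msh3-/- against WT difference of AW495222 was -1.30. Over all genes tested, calls at an adjusted p of 0.05 by edgeR's quasi-likelihood test were rare. The cluster was chosen by these comparisons, so no call is given for its members, and the counts that follow describe all genes. In Q140 x Msh3-/- against Q140 mice, 9 of 20010 genes (0.045%) were called. In Msh3-/- against WT mice 7 genes (0.035%) were called. For the change per altered allele, 13 genes (0.065%) were called. With 1 altered allele, 4 genes (0.02%) were called in Q140 mice and 5 (0.025%) in mice without Q140. All comparisons without Q140 share the WT mice, and all those with it share the Q140 mice. Within each of the 5 plate columns of the labelled wells that held both classes, the log2 CPM difference of mice with 2 altered alleles from mice with 0 was -1.30 to -0.98 for Bhmt2, 0.20 to 0.89 for Dmgdh and -1.36 to -0.65 for AW495222. These are given as a description, and column 4 held only 1 mouse with 0.

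The share of Bhmt2 in the counts of the pair describes both genes together, and its direction follows from theirs. Bhmt2 made up 51.5% to 66% of the counts of both genes in Q140 mice with 0 altered alleles, with a median of 61.3%, 34.9% to 64.2% with 1 (median 43.1%) and 26.5% to 39.0% with 2 (median 28.9%). In mice without Q140 it made up 38.8% to 64.7% in WT (median 55.8%), 20.9% to 50% in Msh3+/- (median 42.2%) and 17.9% to 37.0% in Msh3-/- mice (median 28.5%). Neither pair of groups with 2 and 0 altered alleles overlapped in this share. Across the classes, the mean share was 56.9% ± 8.01 with 0 altered alleles, 41.3% ± 9.77 with 1 and 29.9% ± 5.83 with 2 (SD, n = 15, 17 and 16), and Dmgdh outnumbered Bhmt2 in all 16 mice with 2.

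**Figure D3:**
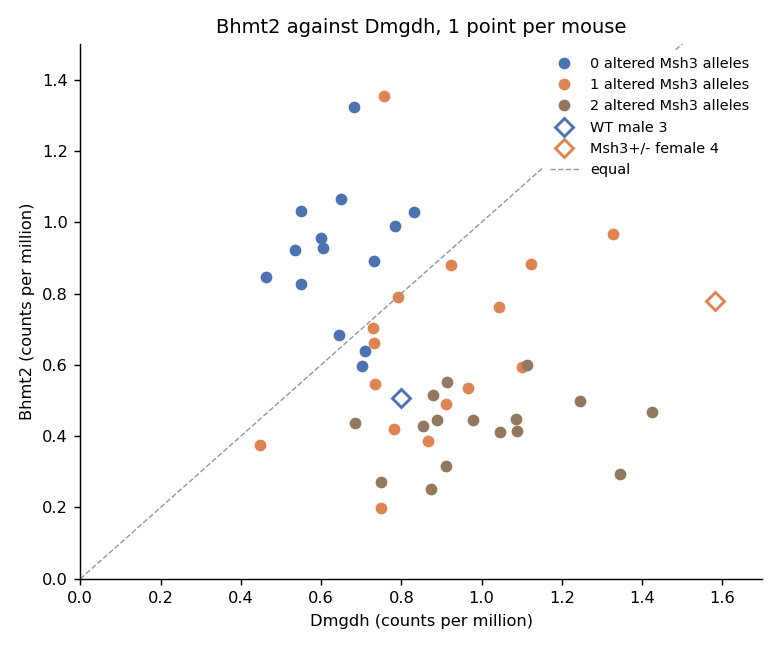
Bhmt2 against Dmgdh RNA, both in CPM, with 1 point per mouse, coloured by the number of altered Msh3 alleles, and a dashed line of equal counts. Open diamonds mark WT male 3 and Msh3+/- female 4. All 16 mice with 2 altered alleles lie below the line, as do 15 of 17 mice with 1 and 3 of 15 with 0, namely WT female 1, WT female 3 and WT male 3.

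Per length, AW495222 was by far the most abundant RNA of the cluster. Over all mice it averaged 3.80 FPKM (counts scaled to exon length and library size), against 0.265 FPKM for Bhmt2, 0.253 FPKM for Dmgdh and 0.00192 FPKM for Bhmt. Set against Dmgdh alone, by counts per exon base, AW495222 made up a mean of 96.2% of the pair with 0 altered alleles. That share was 93.3% with 1 altered allele and 89.1% with 2. In exon bases, 23.4% of AW495222 and 6.30% of Dmgdh lie in the stretch they share. The kit marks strand, per the labels, but whether the counting used it is not given in the sources used here. Of 107 genes that lie wholly in exons of an abundant gene on the other strand, 3 had no count in any library and 19 averaged at least 10 counts, and of 26 wholly in exons on the same strand 19 had none and 1 averaged at least 10. How far reads from one of this pair entered the other's count was not tested. The levels of Bhmt2 and Dmgdh rest on few counts, 9 to 68 and 19 to 65 per library, and those of AW495222 on 67 to 277. Counting alone gives a coefficient of variation of 18.2% for Bhmt2, 15.8% for Dmgdh and 7.85% for AW495222, while the mice of a group varied by 29.7%, 22.9% and 17.6%.

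Ordered by median CPM, the groups ran from Q140 and WT through Q140 x Msh3+/- and Msh3+/- to Q140 x Msh3-/- and Msh3-/- for both Bhmt2 and AW495222. For Dmgdh the groups ran from Q140 and WT at the low end through Msh3+/- and Q140 x Msh3+/- to Msh3-/- and Q140 x Msh3-/-. Every pair of neighbours in these orders overlapped, and for AW495222 the overlap of Msh3+/- with Q140 x Msh3-/- mice rested on Msh3+/- female 4. The mean with 1 altered allele lay between those with 0 and 2 for each gene. Taking the distance between 0 and 2 alleles as 100%, it lay at 42.3% ± 8.66 (SE) for AW495222, 45.2% ± 15.9 for Bhmt2 and 74.4% ± 21.4 for Dmgdh. Without the 2 mice set apart, these positions were 41.2% ± 6.32, 50.3% ± 15.4 and 63.7% ± 17.4. As those mice were singled out after their values were seen, the smaller errors are no further result.

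Q140 itself, which the choice of genes did not use, could be tested. Averaged over the Msh3 classes, Bhmt2 was higher in Q140 mice than in mice without Q140 by 0.28 ± 0.13 on the log2 scale (SE, edgeR quasi-likelihood test, adjusted p = 0.831), which did not pass the test. The difference was -0.03 ± 0.09 for Dmgdh (adjusted p = 0.990) and 0.12 ± 0.08 for AW495222 (adjusted p = 0.917). The 95% intervals of these log2 differences were 0.02 to 0.54 for Bhmt2, -0.22 to 0.16 for Dmgdh and -0.03 to 0.27 for AW495222. Thus 0 of 3 members passed, where 7 of 20010 genes (0.035%) did. At an unadjusted p under 0.05 there were 1 of 3 members (Bhmt2) and 5.63% of all genes. In Q140 against WT mice alone, the differences were 0.35 ± 0.21 for Bhmt2, -0.02 ± 0.17 for Dmgdh and 0.13 ± 0.13 for AW495222, none of which passed (adjusted p = 0.930, 0.994 and 0.950), where 0.01% of all genes were called. At an unadjusted p under 0.05 there were 0 of 3 members and 5.48% of all genes.

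Whether the Msh3-/- difference itself changed with Q140 was tested by its interaction, taken as Q140 carriers minus mice without Q140. It was -0.27 ± 0.32 for Bhmt2, -0.09 ± 0.23 for Dmgdh and 0.07 ± 0.19 for AW495222 on the log2 scale (edgeR adjusted p = 0.974, 0.992 and 0.995). The 95% intervals ran from -0.91 to 0.38, -0.56 to 0.38 and -0.32 to 0.45, so for Bhmt2 and Dmgdh the intervals reached to about the size of the Msh3-/- difference itself. Of all 20010 genes 0 (0%) passed this test, with 1070 (5.35%) at an unadjusted p under 0.05, 0 of 3 members among them. Males differed from females by -0.19 ± 0.09 for Dmgdh (edgeR adjusted p = 0.233), -0.12 ± 0.13 for Bhmt2 (adjusted p = 0.660) and -0.01 ± 0.08 for AW495222 (adjusted p = 0.981) on the log2 scale. Thus 0 of 3 passed, where 1112 genes (5.56%) were called. At an unadjusted p under 0.05 there were 1 of 3 members (Dmgdh) and 20.7% of all genes. The change per altered allele, taken as males minus females, differed by 0.16 ± 0.16 for Bhmt2, -0.05 ± 0.12 for Dmgdh and 0.10 ± 0.10 for AW495222 (edgeR adjusted p = 0.999 each). Again 0 genes (0%) were called, with 1026 (5.13%) at an unadjusted p under 0.05, 0 of 3 members among them.

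Within groups, no pair of the measured members varied together past the test. With genotype and sex removed, the residual log2 CPM of Bhmt2 and Dmgdh correlated with r = 0.21 over 48 mice (permutation p = 0.264, adjusted over 3 pairs 0.746) and rho = 0.28 (p = 0.0946, adjusted 0.284), and r was 0.29 without the 2 mice farthest from the median of Bhmt2. For AW495222 and Dmgdh r was -0.07 (permutation p = 0.746, adjusted 0.746) and rho was 0.08 (p = 0.679, adjusted 0.679). Without the 2 mice farthest from the median of AW495222, which were WT male 3 and Msh3+/- female 4, that r was 0.26, so its sign rested on those mice. For AW495222 and Bhmt2 r was 0.06 (permutation p = 0.745, adjusted 0.746) and rho was 0.12 (p = 0.444, adjusted 0.666), with r = 0.03 without the same 2 mice. Between the allele classes Bhmt2 and Dmgdh differed in opposite directions, while this estimate within groups was positive and did not pass the test.

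Neighbouring genes were taken by position alone, as all 21 genes of the deposited tables within 1000 kb of the cluster, of which 11 passed the count filter. Among these, 1 passed the test for the change per altered allele, where 0.065% of all genes were called. Cmya5 fell by 0.53 on the log2 scale per allele (SE 0.03, edgeR adjusted p = 3.97e-21). Thbs4, a thrombospondin of the extracellular matrix, had -0.32 ± 0.08 (adjusted p = 0.0984) and did not pass. It did with DESeq2, and also without the 2 mice set apart after their values were seen. The immediate neighbours of the cluster were close to 0. Jmy, an actin nucleation factor on the Msh3 side, had 0.03 ± 0.01 (adjusted p = 0.609), and Arsb, a lysosomal sulfatase on the far side, had -0.05 ± 0.01 (adjusted p = 0.163), which passed only without the 3 libraries of raised choroid plexus RNA. Homer1, a scaffold of the postsynaptic density, had 0.08 ± 0.05 (adjusted p = 0.683). The other 6 lay between -0.04 and 0.05. At an unadjusted p under 0.05 by the same edgeR test were Cmya5, Thbs4, Arsb, Lhfpl2 and Mtx3 of the 11, where 9.13% of all genes were. Over the 11 genes the median was -0.02, against -0.0020 over all genes, and no set test was made. With 1 altered allele and without Q140, Cmya5 differed by -0.42 ± 0.07 (adjusted p = 0.00323) and was no longer called when the plate column entered the fit or when the WT and Msh3+/- mice were fitted alone.

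**Figure D4:**
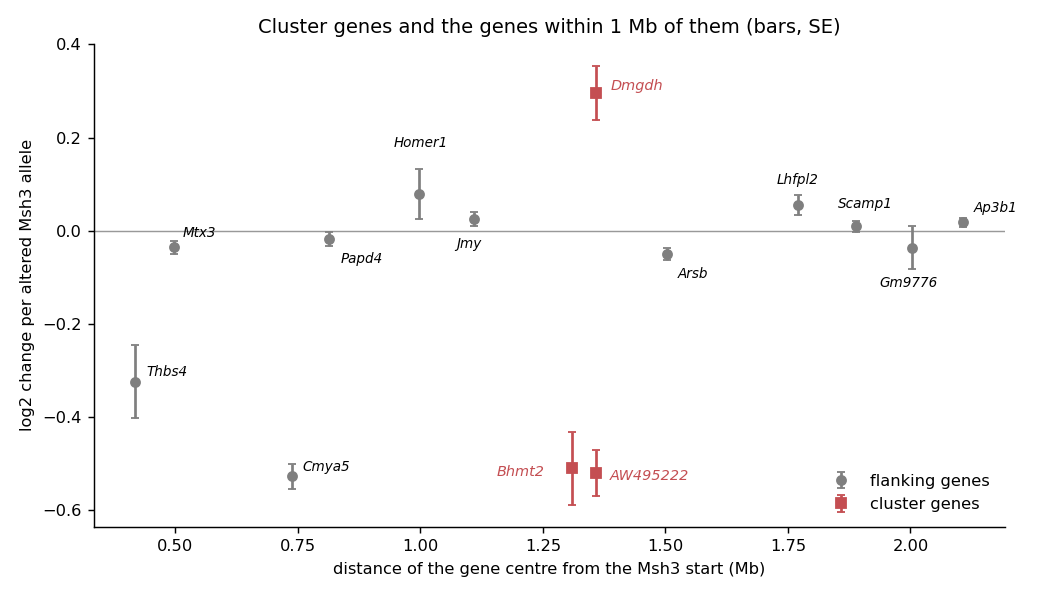
Log2 change per altered Msh3 allele (vertical axis, bars SE) against the distance of the gene centre from the Msh3 start in Mb, for the 3 measured cluster genes (red squares) and the 11 tested genes within 1000 kb of them (grey circles). Cmya5, Bhmt2 and AW495222 lie at -0.53 to -0.51, Dmgdh at 0.30, and Jmy and Arsb, on either side of the cluster, near 0.

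No other listed gene of the pathway was called. Of 54 other genes listed for betaine and dimethylglycine, choline and betaine transport and use, the methionine cycle with transsulfuration, and folate, 52 passed the count filter. None of the 52 passed the edgeR test for the change per altered allele, and none by DESeq2 or limma, where 0.065% of all genes were called. At an unadjusted p under 0.05 there were 9 of 52, where 9.13% of all genes were. Their log2 changes ran from -0.17 (Mthfd2, a mitochondrial folate enzyme) to 0.17 (Slc5a7, the choline transporter of cholinergic terminals), with a median of 0.0052. The number above 0 was 30 of 52. Counts by list were 5 of 8 above 0 for betaine and dimethylglycine, 5 of 11 for choline, 12 of 13 for the methionine cycle and 8 of 20 for folate.

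By the smallest p of each list, the following genes are named, and none passed. Chdh, which makes betaine from choline, had a log2 change per allele of -0.09 ± 0.04 (edgeR adjusted p = 0.483). Etfa, a subunit of the flavoprotein that takes electrons from DMGDH, had 0.02 ± 0.01 (adjusted p = 0.734). For choline, Slc5a7 had 0.17 ± 0.05 (adjusted p = 0.276) and Chat, which makes acetylcholine, had 0.12 ± 0.07 (adjusted p = 0.646). Both are transcripts of cholinergic neurons. In the methionine cycle, Adk, which clears adenosine, had 0.03 ± 0.01 (adjusted p = 0.479) and Cbs, which takes homocysteine into transsulfuration, had 0.04 ± 0.02 (adjusted p = 0.610). In the folate list, Shmt2, which loads folate with carbon from serine, had -0.06 ± 0.02 (adjusted p = 0.308). The listed genes Slc6a20b, a transporter gene, and Mat1a, the liver form of methionine adenosyltransferase, averaged 1.98 and 1.21 counts per library and were not tested.

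**Figure D5:**
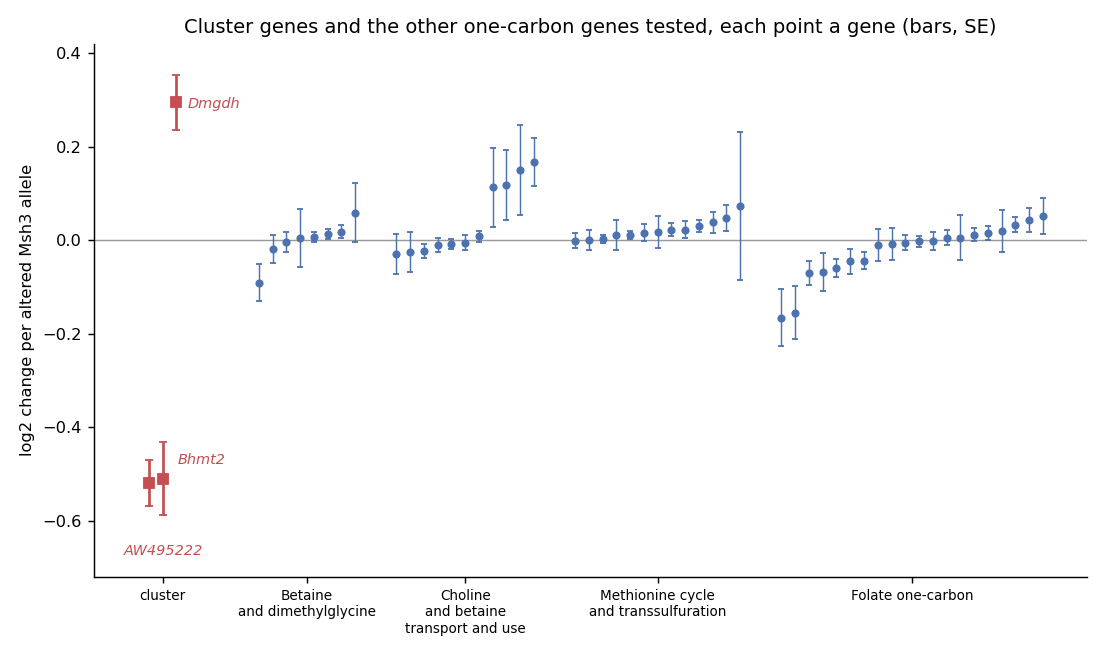
Log2 change per altered Msh3 allele (vertical axis, bars SE) of the 3 measured cluster genes (red squares) and of 52 other genes of the 4 lists (blue circles), sorted within each list. The listed genes lie between -0.17 and 0.17, and the cluster genes at -0.52, -0.51 and 0.30.

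The genes whose 6 group means were most like each member's were found among 16694 genes with a mean of at least 0.5 CPM, by the mean absolute difference of the group means on the log2 scale, each relative to the mice with 0 altered alleles. For AW495222 they were Cmya5 (0.0528), Rasgrf2 (0.0780) and Bhmt2 (0.112), all on chromosome 13. For Bhmt2 they were AW495222 (0.112), E230020A03Rik of chromosome 7 (0.125) and Cmya5 (0.129). For Dmgdh they were Cd163, a scavenger receptor gene of macrophages on chromosome 6 (0.0862), F2r on chromosome 13 (0.0945) and Ocm, a calcium-binding protein gene on chromosome 5 (0.104). Likeness over 6 group means describes these groups and has no test.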

How the data were processed

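Total RNA of dissected cortex (RNeasy kit) went into TruSeq stranded libraries, per the labels' protocols. STAR 2.7.5c, SAMtools 1.10, HTSeq 0.12.3 and the build GRCm38 are listed in the submitters' processing notes. The annotation release and the strand setting are not given in the sources used here. The deposited tables give raw counts per gene and, separately, FPKM values that the authors computed per gene and sample. The length behind the FPKM equalled the joined exon length in GENCODE M21 for 85.4% of 35154 genes.

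Counts were fitted with the edgeR 4.0.16 quasi-likelihood test in R 4.3.3, with TMM factors and sex as a covariate, over all 48 mice. A filter kept 20010 genes, which hold 99.963% of counts, and p-values were Benjamini-Hochberg adjusted over them with a threshold of 0.05. The fit was tested on simulated counts. CPM used the counts of each library in the genes kept, scaled by its TMM factor. The pooled levels of Bhmt and its floor used total counts. Residual correlations used a prior count of 1 and 100000 permutations within genotype and sex, over 3 pairs, since Bhmt was filtered out, and not the 6 planned. The genes named are the 4 members, the 2 smallest p-values of each list, the neighbours by position and the 3 most alike. One gene that the rule names is not reported here. The members and lists were chosen with earlier results of these data known. P-values measure the spread between these mice. Alternatives were DESeq2 1.42.0, limma 3.58.1 on counts and FPKM, other filters, scaling and covariates, and libraries left out.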

Additional observations from a re-analysis of the deposited data

Results flagged for a closer look

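In the search for a mouse apart from the others of its group, 138 groups of 7 to 9 mice were examined over 23 genes and shares, chance flags about 1 group in 20, and 9 mice were found. None was in the 24 groups of the members. Thbs4 stood high in Q140 female 4 at 5.61 CPM, in Q140 x Msh3+/- female 1 at 2.90 CPM and in Msh3+/- male 1 at 2.80 CPM. Cmya5 stood low in Msh3+/- female 4 at 8.07 CPM, with the next mouse of that group at 11.8 CPM, and high in Q140 x Msh3-/- male 4 at 9.999 CPM. Homer1 stood high in Msh3+/- female 1 at 394 CPM, and Ocm stood high in Q140 x Msh3-/- female 1 at 1.73 CPM. Cbs stood low in Msh3+/- male 3 at 18.8 CPM and in Q140 x Msh3-/- male 4 at 18.7 CPM.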

How the results depend on the processing

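In every alternative run, leave-one-out fits included, Bhmt2 and AW495222 were lower and Dmgdh was higher per altered allele, with log2 changes of -0.55 to -0.10, -0.56 to -0.41 and 0.06 to 0.32, and no listed pathway gene was called. The ends nearest 0 came from FPKM plus 1, a pseudocount above the levels of Bhmt2 and Dmgdh. It gave -0.17 (Bhmt2) and 0.13 (Dmgdh) in Msh3-/- against WT, 0.077 (Dmgdh) in Msh3+/- against WT, -0.25 and 0.10 in Q140 x Msh3-/- against Q140, and 0.092 (Dmgdh) in Q140 x Msh3+/- against Q140. Estimates near 0 changed sign, none called, and the cause was not tested. For Dmgdh, Q140 against WT was 0.055 without the 3 libraries of raised choroid plexus RNA, 0.057 without WT male 3 and Msh3+/- female 4, and -0.082 to 0.058 over leave-one-out fits. Its Q140 effect was 0.040, 0.038 and -0.054 to 0.011 in the same order, and its sex difference per allele was 0.033 without the choroid plexus libraries. The sex difference of AW495222 was 0.021 with FPKM plus 0.1, 0.012 with FPKM plus 1, 0.058 without the choroid plexus libraries and -0.036 to 0.023 over leave-one-out fits. With plate column as a factor the interaction was 0.026 (Dmgdh) and -0.036 (AW495222). The correlation of AW495222 and Dmgdh was 0.26 without 2 mice. Of the neighbours, 0 were called in Msh3+/- against WT with plate column or with only those groups, and 2 per allele with DESeq2, without the choroid plexus libraries or without WT male 3 and Msh3+/- female 4, and 1 to 2 over leave-one-out fits (2 without Msh3-/- female 2 or WT male 3). With sex and replicate number as a block the changes per allele were -0.52 (Bhmt2), 0.29 (Dmgdh) and -0.51 (AW495222), and no call of the Q140, interaction, pathway or neighbour tests changed. The numbers did not pair the mice, with a mean correlation of -0.0077 over 115 same-numbered pairs. A filter of 1 CPM dropped Bhmt2, which has no value there. Depth limits Bhmt2 and Dmgdh most, with as few as 9 and 19 counts in a library.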
